A study of Gallus gallus with 24 samples.

Results

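KDR, FLT1, FLT4, TEK, CDH5, ERG, PLVAP and VEGFA were followed in the gonads of female chicken embryos. The first 7 are genes that vascular endothelium expresses, and VEGFA encodes the ligand that KDR and FLT1 bind. They were chosen by name from the rows of the deposited count table, and make up 8 of its 24154 genes. All 8 were among the 16694 genes that passed the filter on low counts. An earlier analysis of the same counts had shown KDR moving opposite to the other members, so the opposition is described here and is not fresh evidence.

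The libraries hold polyadenylated RNA from Gallus gallus embryos of the Leghorn genotype, a laying breed. All embryos were female, and no allele, transgene or treatment is named. Left gonads and right gonads were sequenced apart at embryonic day 5 (E5), E6.5, E8 and E9.5, with 3 libraries for each side and stage and 24 in all. In female birds the left gonad grows into the ovary while the right one regresses, and the series asks how the sides come to differ. The labels do not say whether libraries of a group are separate embryos or pools, and the p-values therefore rest on library-to-library spread that may be technical.

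Endothelial cells line the vessels. Surrounding tissue secretes VEGFA, which binds KDR, the receptor kinase that carries most of the signal for endothelial growth and migration, and FLT1, which holds the ligand tightly and can limit its action. FLT4 is the receptor for VEGFC and VEGFD and is known for lymphatic and venous endothelium, while TEK is the receptor for the angiopoietins, which regulate vessel stability. KDR is not restricted to vessels in the embryo, since mesodermal progenitors of mouse and chick also carry it.

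Totals ran from 15078282 to 19970859 counts per library, a ratio of 1.32, and members had between 288 and 6010 counts in a library. Libraries of a group differed by more than counting noise, with a chi-square per degree of freedom from 7.91 to 58.1 over 24 pairs. The gonadal regulators WT1, at 244 to 474 CPM (counts scaled to library size), and GATA4, at 207 to 578 CPM, were present in every library. Other tissue was present too. The mesonephros marker CUBN lay between 8.36 and 224 CPM in left libraries and between 21.8 and 814 CPM in right libraries. The chromaffin marker CHGA lay between 17.1 and 530.0 CPM in left libraries and between 8.41 and 151 CPM in right libraries. The adrenal cortex marker MC2R lay between 0.0597 and 2.37 CPM in left libraries and between 0 and 1.38 CPM in right libraries. ALB, a liver transcript, reached 170 CPM in replicate 3 of the E6.5 left gonad and 1008 CPM in replicate 3 of the E8 right gonad. In bulk RNA, fewer endothelial cells and less transcript per endothelial cell cannot be told apart.

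KDR was higher in the left gonad, and the difference passed the test at E6.5, E8 and E9.5. Levels are CPM on scaled library totals, and a gene is called where edgeR's quasi-likelihood test gave an adjusted p (Benjamini-Hochberg over all genes tested) under 0.05. At E5 the libraries read 159, 210.2 and 217 CPM on the left and 126, 155 and 166 CPM on the right. At E6.5 they read 281, 312 and 277 CPM on the left and 164, 158 and 174 CPM on the right. The sides overlapped at E5, through replicate 1 of the left gonad, and lay clear of each other at E6.5. At E8 the left libraries held 224, 186 and 168 CPM, and the right libraries 109, 102 and 98.7 CPM. At E9.5 the left libraries held 200.01, 189 and 174 CPM, and the right libraries 94.6, 90.9 and 99.5 CPM. Every left library of these later stages was above every right library.

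The fold of left over right for KDR was 1.31 at E5 (log2 0.39 ± 0.12 SE, adjusted p = 0.095), which did not pass. It was 1.75 at E6.5 (log2 0.81 ± 0.12 SE, adjusted p = 0.00052) and 1.87 at E8 (log2 0.90 ± 0.12 SE, adjusted p = 5.9e-05). At E9.5 it was 1.98 (log2 0.98 ± 0.12 SE, adjusted p = 3.1e-05). Averaged over the 4 stages the left gonad held 1.71 times the level of the right (log2 0.77 ± 0.06 SE, adjusted p = 2e-08). At E5, leaving out replicate 1 of the left gonad gave log2 0.52 with an adjusted p of 0.017, past the threshold. With same-numbered left and right libraries as pairs, the E5 difference was 0.39 with an adjusted p of 0.013. Correlations in these counts hint at such pairs at E5 and E9.5, and no label states them.

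**Figure D1:**
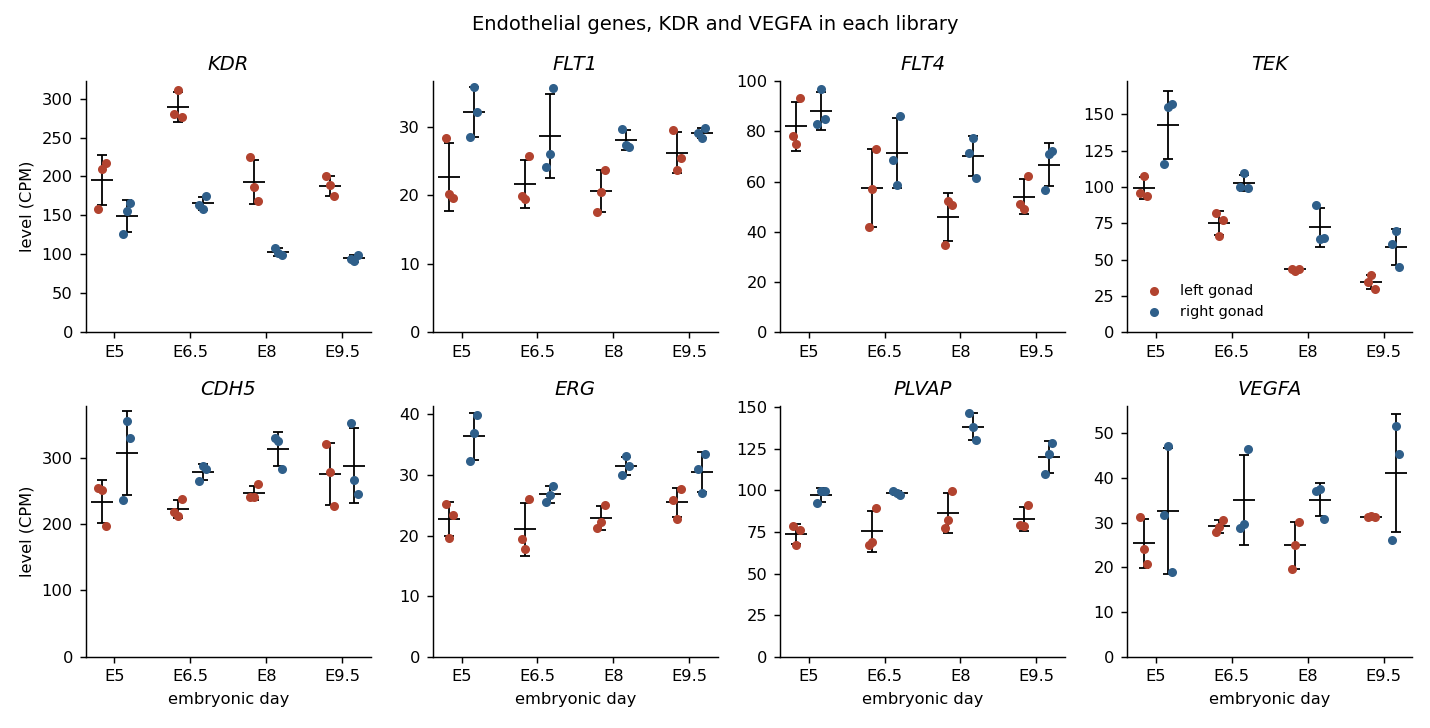
Level of each of the 8 genes in CPM (linear axis from 0) at the 4 embryonic stages. Each point is 1 library, red for the left gonad and blue for the right, and the bars give the mean ± SD of 3 libraries. KDR points of the left gonad lie above those of the right from E6.5 on, while TEK and PLVAP points of the left gonad lie below those of the right at all 4 stages.

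FLT1, whose protein competes with KDR for ligand, was lower in the left gonad on average over the stages but at no stage alone. Left libraries lay between 17.6 and 29.5 CPM and right libraries between 24.2 and 35.8 CPM. At E8 the left libraries held 17.6, 20.4 and 23.7 CPM, and the right libraries 29.7, 27.4 and 27.0 CPM, with no overlap. The E8 log2 difference was -0.45 ± 0.17 SE with an adjusted p of 0.077. At E5 FLT1 passed only without replicate 1 of the left gonad (-0.69, adjusted p = 0.033) among the fits that leave out 1 library. Averaged over stages it was -0.37 ± 0.08 SE (adjusted p = 0.0019).

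FLT4, the receptor of lymphatic and venous endothelium, was called lower in the left gonad at E8. The E8 libraries read 34.6, 52.1 and 50.7 CPM on the left and 71.4, 77.4 and 61.5 CPM on the right (log2 -0.61 ± 0.19 SE, adjusted p = 0.034). The sides did not overlap at that stage. The E5 values of FLT4, at 82.1 ± 9.76 CPM on the left and 88.3 ± 7.58 CPM on the right (SD, n = 3), did. The call at E8 was lost without replicate 1 (log2 -0.43, adjusted p = 0.21) or replicate 3 (-0.67, 0.060) of the left gonad, and without replicate 1 (-0.57, 0.11) or replicate 2 (-0.54, 0.12) of the right. With mesonephros markers as covariate the E8 call was lost too (-0.58, adjusted p = 0.071). Averaged over stages FLT4 was lower on the left by log2 -0.33 ± 0.09 SE (adjusted p = 0.0098). Leaving all E8 libraries out of that average gave -0.23 with an adjusted p of 0.15.

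TEK, the angiopoietin receptor, was lower in every left library than in any right library of its stage. At E5 it stood at 95.7, 108 and 93.6 CPM on the left and 116, 155 and 157 CPM on the right. At E6.5 the left libraries held 82.1, 66.1 and 77.5 CPM, and the right libraries 99.9, 109 and 99.2 CPM. Neither stage passed the test, with log2 differences of -0.53 ± 0.15 SE (adjusted p = 0.070) and -0.45 ± 0.15 SE (adjusted p = 0.13). At E5 TEK passed with the libraries paired by number (-0.52, adjusted p = 0.020) and without replicate 1 of the right gonad (adjusted p = 0.035). At E8 the left libraries were close together at 43.5, 42.2 and 43.8 CPM, and the right libraries held 87.3, 64.3 and 64.8 CPM (log2 -0.74 ± 0.15 SE, adjusted p = 0.0035). At E9.5 TEK stood at 34.5, 39.5 and 29.7 CPM on the left and 60.4, 69.7 and 45.0 CPM on the right (log2 -0.76 ± 0.16 SE, adjusted p = 0.0039). The E9.5 call was lost with mesonephros markers as covariate (-0.65, adjusted p = 0.052) and in a fit on the E9.5 libraries alone (-0.74, adjusted p = 0.060). The average over stages was log2 -0.62 ± 0.08 SE (adjusted p = 6.8e-06).

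CDH5 encodes VE-cadherin, the adhesion protein of endothelial junctions. Averaged over stages it had the smallest difference between sides of the 8 members. At E8 the left libraries held 241, 241 and 259.8 CPM, and the right libraries 329.9, 325 and 283 CPM. At E9.5 the sides were mixed, at 321, 278 and 228 CPM on the left and 353, 266 and 246 CPM on the right. In the fit of all 24 libraries CDH5 passed at no stage, with adjusted p-values from 0.14 to 0.83. Fitted on the E8 libraries alone, it passed at E8 (-0.32, adjusted p = 0.028). On average over stages it passed in the fit of all libraries (log2 -0.28 ± 0.08 SE, adjusted p = 0.0076). Leaving all E6.5 libraries or all E8 libraries out of that average gave -0.26 in each case, with adjusted p-values of 0.052 and 0.079.

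ERG, an ETS-family transcription factor that maintains endothelial identity, was called lower in the left gonad at E5 and E8. At E5 it stood at 25.3, 19.6 and 23.3 CPM on the left and 32.3, 36.9 and 40.0 CPM on the right (log2 -0.68 ± 0.14 SE, adjusted p = 0.0071). At E8 it stood at 21.2, 22.2 and 25.1 CPM on the left and 30.0, 33.1 and 31.5 CPM on the right (log2 -0.46 ± 0.14 SE, adjusted p = 0.028). The sides were separate at these stages and overlapped at E6.5 and E9.5. Without replicate 2 of the left gonad the E5 difference was -0.58 with an adjusted p of 0.057. At E8 the call was lost without any of 5 of the 6 libraries, all except replicate 3 of the left gonad, with adjusted p-values from 0.058 to 0.14. Averaged over stages ERG was lower on the left by log2 -0.44 ± 0.07 SE (adjusted p = 8.1e-05).

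PLVAP, which forms the diaphragms of fenestrated capillaries, was lower in the left gonad, with the sides apart at all 4 stages. At E5 the left libraries held 78.4, 67.2 and 76.2 CPM, and the right libraries 92.1, 99.5 and 99.5 CPM. At E8 the left libraries held 77.5, 82.0 and 99.8 CPM, and the right libraries 147, 138 and 130.2 CPM. At E9.5 the left libraries held 79.2, 78.4 and 91.3 CPM, and the right libraries 109.5, 122 and 129 CPM. The difference passed at E8 (log2 -0.68 ± 0.11 SE, adjusted p = 0.00046) and E9.5 (-0.53 ± 0.11 SE, adjusted p = 0.0041). It missed at E5 (-0.39 ± 0.11 SE, adjusted p = 0.060) and E6.5 (-0.38 ± 0.11 SE, adjusted p = 0.063). DESeq2 called PLVAP at both, with -0.39 at E5 (adjusted p = 0.025) and -0.40 at E6.5 (adjusted p = 0.020). At E6.5 replicate 3 of the left gonad, the library with 170 CPM of ALB, held 89.7 CPM, above the 67.1 and 69.2 CPM of its group. That library also had the highest mean log2 levels of adrenal (3.54) and red cell (9.81) markers in its group. Without it PLVAP passed at E6.5 (log2 -0.53, adjusted p = 0.0095), as did ERG (-0.53, adjusted p = 0.037). With all libraries and adrenal markers as covariate, PLVAP passed at E6.5 too (-0.54, adjusted p = 0.0018). What lies behind these shifts was not tested.

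VEGFA, the ligand, had right libraries that lay far apart at E5, E6.5 and E9.5. At E5 the left libraries held 31.4, 24.05 and 20.8 CPM, and the right libraries 31.7, 47.1 and 18.9 CPM. At E9.5 the left libraries held 31.3, 31.5 and 31.2 CPM, and the right libraries 26.2, 51.7 and 45.4 CPM. The sides overlapped at E5, E6.5 and E9.5. No stage passed, with adjusted p-values from 0.24 to 0.72, and the average over stages was just inside the threshold (log2 -0.38 ± 0.14 SE, adjusted p = 0.040). That call was lost in 16 of the 24 fits that leave out 1 library, where the adjusted p reached 0.091, and without the E6.5, E8 or E9.5 libraries as a whole (0.065, 0.19 and 0.084).

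**Figure D2:**
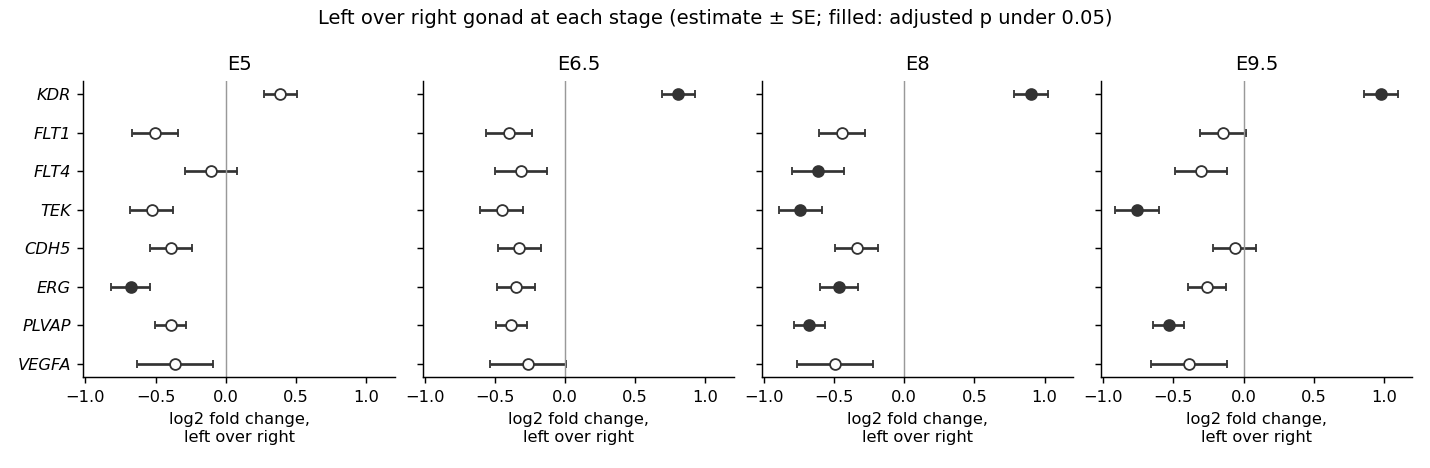
Log2 fold change of the left over the right gonad for the 8 genes at each stage, as estimate ± SE, with filled points where the adjusted p was under 0.05. KDR lies right of 0 in all 4 panels and the other 7 genes lie left of it, with 1, 1, 5 and 3 filled points from E5 to E9.5.

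Counted over the 8 members, KDR was the only one with a positive left-right difference at any stage. At E5, 1 of 8 members was called, ERG, where 2.94% of all genes tested were called. With the libraries paired by number 3 of 8 were called, KDR and TEK with it, where 814 of the 16694 genes were. At E6.5, 1 of 8 was called, KDR, against 3.24% of all genes. At E8, 5 of 8 were called, KDR higher and FLT4, TEK, ERG and PLVAP lower, against 14.3% of all genes, 7.54% higher and 6.71% lower. At E9.5, 3 of 8 were called, KDR higher and TEK and PLVAP lower, against 13% of all genes, 5.13% higher and 7.87% lower. Averaged over stages all 8 were called, 1 higher and 7 lower, where 32.2% of all genes were called, 14.9% higher and 17.2% lower. The left and right libraries were apart for 4 of 8 members at E5 (18.5% of all genes tested), 4 at E6.5 (15.6%), all 8 at E8 (39.3%) and 3 at E9.5 (26.2%). The median log2 difference of the members was -0.48 at E8 and -0.38 on average over stages, where the medians of all genes were -0.04 and -0.01.

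Mesonephros markers were also lower in the left gonad at E8 and E9.5. At E5 the sides overlapped, with sums between 222 and 738 CPM in left libraries and between 224 and 1131 CPM in right libraries. They overlapped at E6.5 too, between 140 and 1240 CPM in left libraries and between 557 and 3656 CPM in right libraries. At E8 the list of 15 summed to between 317 and 481 CPM in left libraries and between 613 and 2528 CPM in right libraries, and at E9.5 to between 159.9 and 394 CPM in left libraries and between 787 and 3132 CPM in right libraries. Averaged over stages 12 of these 15 genes were called lower on the left, against 17.2% of all genes. The list's median was log2 -1.88. A further fit took the mean log2 level of that list as a covariate. At E8 and E9.5 that level and the side go together. Calls kept or lost beside it, here and above, are therefore described only, and what lies behind them was not tested. KDR (log2 0.71), TEK (-0.56), PLVAP (-0.49) and ERG (-0.46) passed on average in that fit, for which no share of all genes is given. VEGFA stood at -0.05 with an adjusted p of 0.86. FLT1 (-0.29, adjusted p = 0.067), FLT4 (-0.30, 0.11) and CDH5 (-0.28, 0.051) did not pass in that fit. Adrenal markers were higher on the left at E8 and E9.5. Their E8 sums lay between 762 and 1921 CPM in left libraries and between 216 and 246 CPM in right libraries. The E9.5 sums lay between 444 and 1204 CPM in left libraries and between 224 and 287 CPM in right libraries. At E5 they were lower on the left, with sums between 230 and 290 CPM in left libraries and between 356 and 564 CPM in right libraries. On average over stages 10 of 12 were called, where 32.2% of all genes were. With the adrenal list as covariate the average for KDR was log2 0.88, while CDH5 (-0.25, adjusted p = 0.12) and VEGFA (-0.53, 0.066) no longer passed on average, nor did TEK at E8 (-0.60, 0.14). The adrenal level and the side also go together at E5, E8 and E9.5, so these values too are described only. Of the lists for other cells, 6 of 10 liver genes and 1 of 7 red cell genes, HBBA, were called lower on the left on average, and 2 of 10 somatic gonad genes were called higher and 2 lower. Among all genes the averaged comparison called 14.9% higher and 17.2% lower.

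Whether the KDR difference changed with stage depended on the fit. Without pairing, an F test for a left-right difference that varies over the 4 stages called 0 of 8 members in edgeR, against 2.05% of all genes tested. KDR had an unadjusted p of 0.011 in that edgeR test (adjusted 0.19), and DESeq2 called 0 as well. For KDR the difference at E9.5 minus that at E5 was log2 0.59 ± 0.17 SE (adjusted p = 0.076). In this contrast edgeR called 0 of 8 members, where 2.2% of all genes were called. KDR and ERG had an unadjusted p under 0.05 there, a looser threshold for which no share of all genes is given. With the libraries paired by number KDR passed in that contrast (log2 0.60, adjusted p = 0.0099) and in the F test (adjusted p = 0.028), though at E6.5 and E8 not all same-numbered pairs correlated. DESeq2 called 1 member, KDR (log2 0.62, adjusted p = 0.028). KDR also passed in edgeR without replicate 3 of the E5 left gonad (log2 0.71, adjusted p = 0.047) or replicate 1 of the E5 right gonad (0.70, adjusted p = 0.034).

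To set KDR against the vessels of the same library, its log2 CPM was compared with the mean log2 CPM of FLT1, FLT4, TEK, CDH5, ERG and PLVAP. These genes differ in length, so the ratio is read between libraries only. In the left gonad the log2 ratio averaged 1.59 ± 0.34 at E5, 2.37 ± 0.27 at E6.5, 1.89 ± 0.35 at E8 and 1.77 ± 0.09 at E9.5 (SD, n = 3 each). In the right gonad it averaged 0.77 ± 0.08, 1.18 ± 0.05, 0.44 ± 0.03 and 0.45 ± 0.09 at these stages. Left and right libraries were apart at every stage, and the left ratio was 1.76, 2.27, 2.72 and 2.50 times the right one from E5 to E9.5. The E5 left libraries were the most scattered, at 1.21, 1.77 and 1.80, with replicate 1 lowest. The other 6 genes together, as a geometric mean, stood at 64.3 ± 3.996 CPM on the left and 87.0 ± 9.78 CPM on the right at E5. At E9.5 they stood at 55.0 ± 1.86 CPM on the left and 69.7 ± 1.13 CPM on the right. No test was made of this ratio, since its genes were chosen with their directions known.

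**Figure D3:**
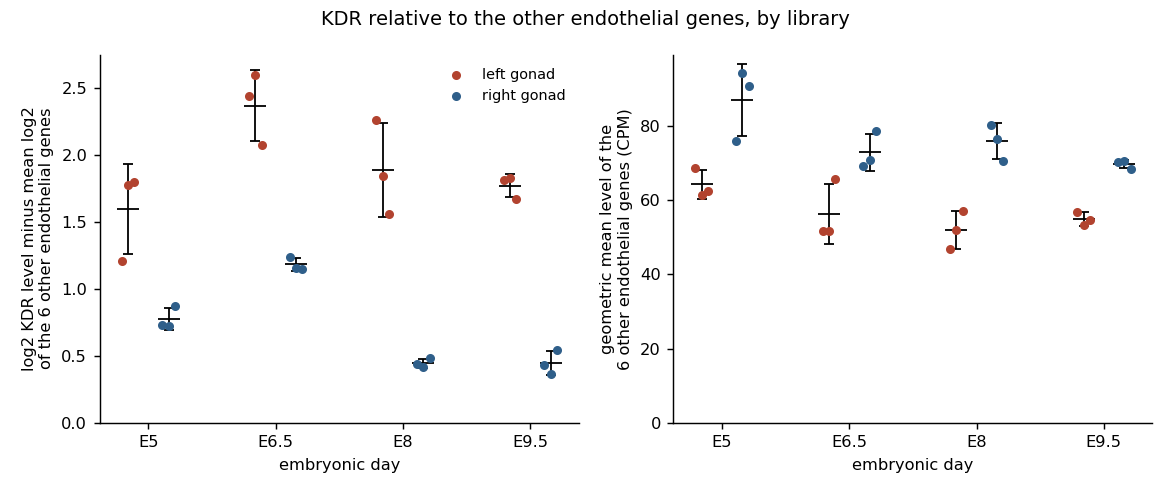
Left panel, log2 level of KDR minus the mean log2 level of the 6 other endothelial genes in each library. Right panel, geometric mean level of those 6 genes in CPM. Points are libraries (red left gonad, blue right gonad) and bars the mean ± SD of 3 libraries. In both panels the left and right libraries lie apart at every stage, with the left gonad higher in the ratio and lower in the level of the 6 genes.

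A list of 22 further endothelial genes held none of the members. Its mean log2 level at E8 lay between 4.75 and 4.95 in left libraries and between 5.29 and 5.50 in right libraries. The list was chosen with earlier results known, and at E8 its level and the side go together. Calls kept or lost beside it are therefore described only, and what lies behind them was not tested. With that level as a covariate, KDR remained higher on the left at E6.5 (log2 0.75, adjusted p = 0.010), E8 (0.81, adjusted p = 0.015) and E9.5 (0.94, adjusted p = 0.00029). TEK remained lower at E8 (-0.90, adjusted p = 0.028) and E9.5 (-0.83, adjusted p = 0.0054). ERG at E5 (-0.37, adjusted p = 0.18) and PLVAP at E8 (-0.32, adjusted p = 0.16) no longer passed. FLT1, at log2 -0.03, ERG, at -0.11, CDH5, at -0.18, and VEGFA, at 0.01, were not called in the averaged comparison of that fit. FLT4 changed sign there, at 0.12 with an adjusted p of 0.50.

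Across stages TEK had the largest change of the members, and it fell in both gonads. Its mean level in the left gonad was 99.0 CPM at E5, 75.2 at E6.5, 43.2 at E8 and 34.5 at E9.5. In the right gonad it was 143, 103, 72.1 and 58.4 CPM at these stages. E9.5 against E5 gave log2 -1.52 ± 0.16 SE on the left (adjusted p = 2.2e-07) and -1.29 ± 0.15 SE on the right (adjusted p = 1.7e-06). The E9.5 and E5 libraries did not overlap on either side.

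KDR did not follow TEK. In the left gonad it averaged 195 ± 32.0 CPM at E5, 289.7 ± 19.1 CPM at E6.5, 193 ± 28.7 CPM at E8 and 188 ± 12.9 CPM at E9.5 (SD, n = 3 each). In the right gonad it averaged 149 ± 20.8, 165 ± 8.29, 103 ± 5.03 and 95.0 ± 4.28 CPM. The E6.5 left libraries lay above all others, and those of E8 right and E9.5 right below all others. On the left KDR rose at E6.5 against E5 (log2 0.57 ± 0.12 SE, adjusted p = 0.0030) and fell at E8 against E6.5 (-0.59 ± 0.12 SE, adjusted p = 0.0020). On the right it fell at E8 against E6.5 (-0.68 ± 0.12 SE, adjusted p = 0.00058). E9.5 against E5 was -0.65 ± 0.12 SE on the right (adjusted p = 0.00025) and -0.06 ± 0.12 SE on the left (adjusted p = 0.75). Fitted on E5 and E6.5 left libraries alone, the left rise had an adjusted p of 0.062, and with the adrenal list as covariate the left fall at E8 had one of 0.053.

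PLVAP rose in the right gonad at E8 against E6.5 (log2 0.49 ± 0.11 SE, adjusted p = 0.0038). FLT4 fell in the left gonad at E9.5 against E5 (-0.60 ± 0.19 SE, adjusted p = 0.016), a call lost without replicate 3 of E5 (0.067), replicate 1 of E9.5 (0.058) or replicate 2 of E9.5 (0.068). Calls at the edge of the threshold were PLVAP at E9.5 against E5 in the right gonad (0.31 ± 0.11 SE, adjusted p = 0.033), and ERG (-0.44 ± 0.14 SE, 0.032) and TEK (-0.47 ± 0.15 SE, 0.041) at E6.5 against E5 in the right gonad. Each of these 3 was lost in most fits that leave out 1 of its 6 libraries. TEK at E8 against E6.5 in the right gonad (-0.51 ± 0.15 SE, adjusted p = 0.022) was lost without replicate 2 of E6.5 (0.081), replicate 2 of E8 (0.097) or replicate 3 of E8 (0.10). It was also lost without the 2 libraries that had the highest mean log2 level of liver genes (0.083). The endothelial covariate ended it too (0.24), and the PLVAP call in that step as well (0.25). Over single steps, E6.5 against E5 called 1 member on the left, KDR, where 10.4% of all genes were called, and 2 on the right, where 15.1% were. E8 against E6.5 called KDR and TEK on the left, where 19.4% of all genes were called, and KDR, TEK and PLVAP on the right, where 20.5% were. In E9.5 against E5, 2 of 8 members were called on the left, where 34.2% of all genes were, and 3 of 8 on the right, where 37.5% were. From E8 to E9.5 edgeR and DESeq2 called 0 of 8 members on either side, against 1.88% of all genes on the left and 3.21% on the right. At an unadjusted p under 0.05 there was 1 member on the left and 0 on the right.

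The wider VEGF list held 9 tested genes, among them the ligands PGF, VEGFC and VEGFD and the co-receptors NRP1 and NRP2. Averaged over stages 1 was called higher on the left, KDR, and 5 lower, which were FLT1, FLT4, VEGFA, PGF and VEGFC. Of all genes 14.9% were called higher and 17.2% lower. PGF, a ligand of FLT1, stood at 4.93 ± 1.20 CPM on the left and 8.50 ± 1.32 CPM on the right at E8 (log2 -0.78 ± 0.23 SE, adjusted p = 0.026). VEGFC, the main ligand of FLT4, was lower by log2 -0.38 ± 0.10 SE on average (adjusted p = 0.0058). The list's median was -0.33, where that of all genes was -0.01. VEGFD behaved otherwise and rose with stage in both gonads. In the left gonad it was at 52.9 ± 13.5 CPM at E9.5 and 2.87 ± 1.10 CPM at E5, and in the right gonad at 31.7 ± 8.40 CPM at E9.5 and 3.87 ± 0.585 CPM at E5. The changes of VEGFD over these stages were log2 4.20 ± 0.35 SE on the left (adjusted p = 1.1e-08) and 3.03 ± 0.33 SE on the right (adjusted p = 5.6e-07).

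In the angiopoietin and TIE list, 6 of 7 tested genes were called on average over stages, all lower in the left gonad, against 17.2% of all genes. The list's median was log2 -0.60. ANGPT2, a context-dependent ligand of TEK, stood at 25.9 ± 3.69 CPM on the left and 47.7 ± 5.18 CPM on the right at E8 (log2 -0.88 ± 0.14 SE, adjusted p = 0.00037). ANGPT1, the agonist ligand of TEK, stood at 15.9 ± 2.54 CPM on the left and 30.6 ± 1.52 CPM on the right at E8 (-0.94 ± 0.20 SE, adjusted p = 0.0034). ANGPT4, another ligand, was lower by -0.93 ± 0.20 SE (adjusted p = 0.0040). TIE1, the co-receptor of TEK, passed only in the average (-0.33 ± 0.10 SE, adjusted p = 0.012) among the left-right comparisons. Across stages the ligands parted. ANGPT1 fell at E9.5 against E5, by log2 -1.35 ± 0.20 SE on the left and -1.21 ± 0.19 SE on the right (adjusted p = 1.7e-05 and 5.5e-05). ANGPT2 rose, by 0.73 ± 0.14 SE on the left and 0.71 ± 0.14 SE on the right (adjusted p = 0.00039 and 0.00043).

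The endothelial identity list held 25 tested genes, CDH5, ERG and PLVAP among them. Averaged over stages 17 of 25 were called, all lower in the left gonad, where 17.2% of all genes were called lower. The other 8 of the list also had a negative difference. Its median was log2 -0.33, where that of all genes was -0.01. The largest of the further genes were VWF (-0.65 ± 0.10 SE, adjusted p = 9.7e-05), which encodes a clotting factor stored in endothelium, and the guidance receptor ROBO4 (-0.61 ± 0.15 SE, adjusted p = 0.0038). LMO2, a transcriptional cofactor of blood and endothelium, followed at -0.53 ± 0.06 SE (adjusted p = 3.6e-06). By stage, 5 of 25 were called at E5, 11 at E8 and 4 at E9.5, all lower on the left. Of all genes 2.94%, 14.3% and 13% were called at these stages, in either direction. At E6.5 edgeR called 0, where 3.24% of all genes were called. Before adjustment 11 had a p under 0.05, a looser threshold for which no share of all genes is given. VWF stood at 66.6 ± 7.02 CPM on the left and 125 ± 23.1 CPM on the right at E9.5 (-0.91 ± 0.21 SE, adjusted p = 0.0077). Across stages 9 of 25 rose and 2 fell on the left at E9.5 against E5, where 34.2% of all genes were called, and 10 rose and 2 fell on the right, where 37.5% were. The arterial and endothelial transcription factor SOX17 rose by 1.93 ± 0.41 SE on the left (adjusted p = 0.00097) and 1.87 ± 0.41 SE on the right (adjusted p = 0.0012). CD34, a surface sialomucin, rose by 1.72 ± 0.21 SE on the left (adjusted p = 1.9e-06) and 1.10 ± 0.21 SE on the right (adjusted p = 0.00030).

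**Figure D4:**
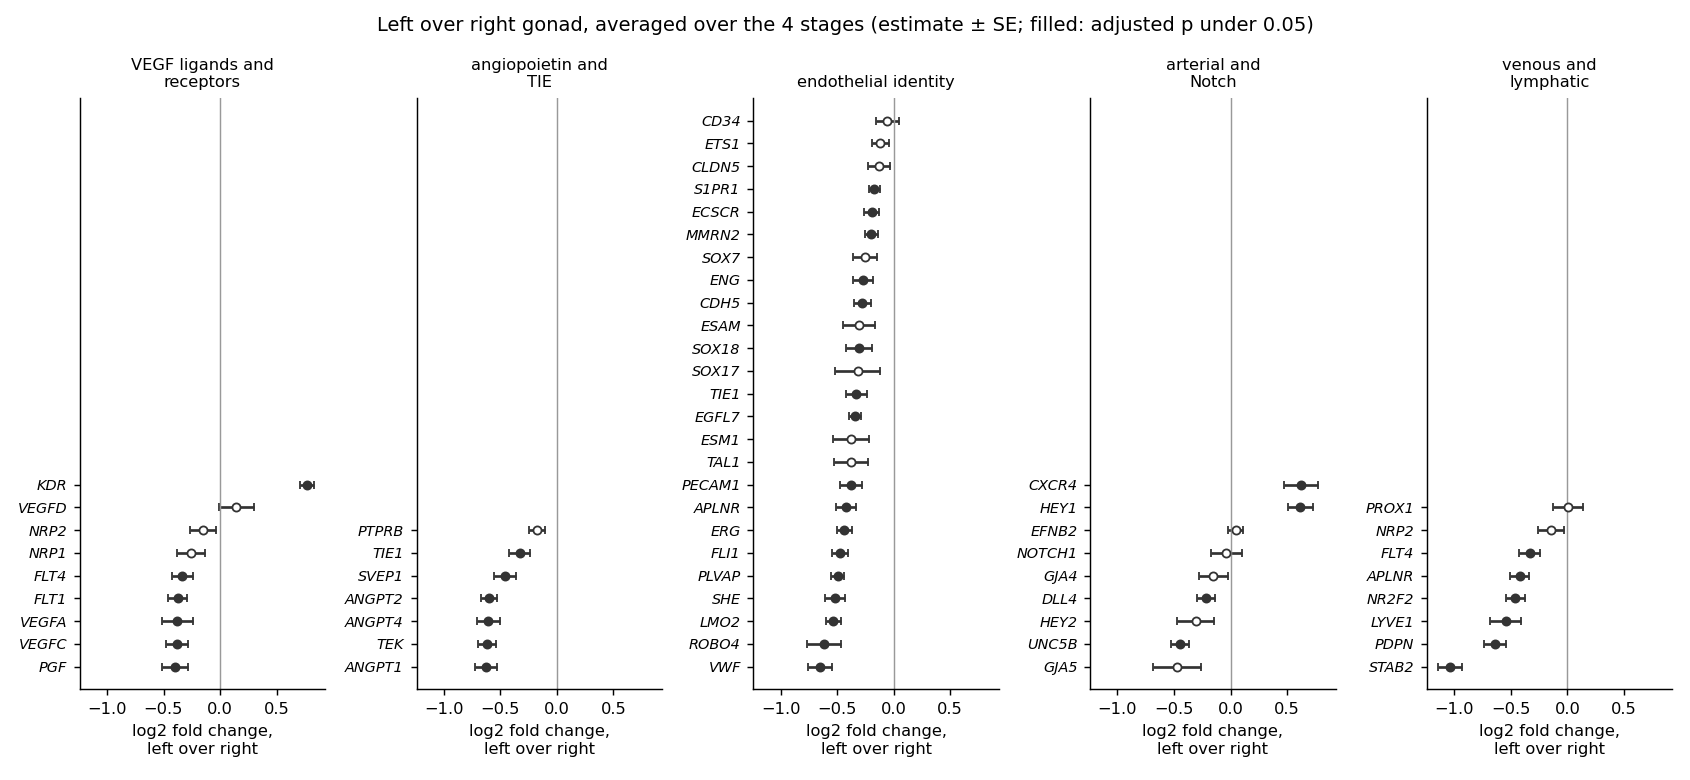
Log2 fold change of the left over the right gonad averaged over the 4 stages for the tested genes of 5 vascular lists, as estimate ± SE, with filled points where the adjusted p was under 0.05. KDR, CXCR4 and HEY1 are the filled points right of 0, and all 25 genes of the endothelial identity list lie left of 0. Some genes stand in more than 1 list.

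Among 8 tested venous and lymphatic genes, 6 were called on average, all lower on the left, against 17.2% of all genes. The list's median was log2 -0.44. STAB2, a scavenger receptor of sinusoidal and lymphatic endothelium, had the largest difference. It stood at 26.4 ± 3.23 CPM on the left and 75.4 ± 4.36 CPM on the right at E9.5 (log2 -1.51 ± 0.21 SE, adjusted p = 0.00013). NR2F2, a regulator of venous identity that gonadal stroma also expresses, was lower at E8 (-0.90 ± 0.17 SE, adjusted p = 0.0020). LYVE1, a hyaluronan receptor of lymphatic endothelium and macrophages, fell between E5 and E9.5, by -1.94 ± 0.28 SE on the left and -1.79 ± 0.28 SE on the right (adjusted p = 1.7e-05 and 3.9e-05). Macrophage markers were lower on the left as well. On average over stages 10 of 14 were called lower and 1 higher, against 17.2% and 14.9% of all genes. Their sums at E8 lay between 104 and 118 CPM in left libraries and between 146 and 163 CPM in right libraries. Their part in the STAB2 and LYVE1 values was not tested.

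The arterial and Notch list held genes called in both directions. Its median was log2 -0.15, where that of all genes was -0.01, and 6 of 9 genes had a negative difference. Of the 9 tested genes, 2 were called higher on the left on average, CXCR4 (log2 0.62 ± 0.15 SE, adjusted p = 0.0041) and HEY1 (0.62 ± 0.11 SE, adjusted p = 0.00028). Among all genes, 14.9% were called higher and 17.2% lower in that comparison. CXCR4 is a chemokine receptor that avian germ cells also express, and HEY1 is a Notch target in many tissues. DLL4, the Notch ligand of arterial and tip cells, and the netrin receptor UNC5B were called lower (-0.22 ± 0.08 SE, adjusted p = 0.047, and -0.45 ± 0.08 SE, adjusted p = 0.00026). Over the stages DLL4, EFNB2, GJA4, HEY1 and HEY2 rose in both gonads. For DLL4, E9.5 against E5 gave 0.95 ± 0.16 SE on the left (adjusted p = 0.00012) and 0.81 ± 0.16 SE on the right (adjusted p = 0.00055). Of 10 tested genes of mural cells, the pericytes and smooth muscle of vessel walls, 2 were called on average, where 32.2% of all genes were. These 2 were DES and RGS5, both lower on the left. The pericyte marker RGS5 stood at 28.3 ± 5.50 CPM on the left and 36.7 ± 1.25 CPM on the right at E9.5. At that stage 0 of the 10 mural genes were called between sides, where 13% of all genes were. At E5 RGS5 was low, at 0.745 ± 0.371 CPM on the left and 1.10 ± 0.416 CPM on the right.

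VEGFA is induced by low oxygen in many cells, so genes of hypoxia and glycolysis were set beside it. Averaged over stages 3 of 16 were called higher on the left and 5 lower, against 14.9% and 17.2% of all genes. The list's median log2 difference was 0.01, near that of all genes at -0.01. By stage the list's median was -0.05 at E5, 0.17 at E6.5, -0.17 at E8 and -0.08 at E9.5. ADM, a vasoactive peptide that hypoxia induces, was lower on the left (-0.49 ± 0.07 SE, adjusted p = 4.4e-05), and LDHA, a glycolytic enzyme, was higher (0.55 ± 0.10 SE, adjusted p = 0.00038). HIF1A, the oxygen-regulated transcription factor, was lower at E8 by log2 -0.29 ± 0.09 SE (adjusted p = 0.034).

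The genes whose levels followed KDR most closely were not those of the endothelial lists. Over the 24 libraries, the highest Pearson correlations of log2 CPM among 11318 genes with a symbol and a mean of at least 2 CPM were with EMILIN2 (r = 0.937), PTDSS1 (0.935), EPB41 (0.921), ENC1 (0.920) and ARFGEF3 (0.918). These libraries share sides, stages and scaling, and KDR was already known to run against the other members between sides. The ranking, and the side differences of genes picked by it, are therefore described only and are not fresh evidence. Within groups, over deviations from the group mean, the correlations were lower, from 0.303 for EPB41 to 0.701 for EMILIN2. EMILIN2, an extracellular matrix glycoprotein, stood at 379 ± 43.2 CPM on the left and 169 ± 9.86 CPM on the right at E9.5 (log2 1.16 ± 0.14 SE, adjusted p = 2e-05). ARFGEF3, which has a guanine exchange factor domain, stood at 112 ± 12.7 CPM on the left and 25.1 ± 2.57 CPM on the right at E8 (2.16 ± 0.15 SE, adjusted p = 1.9e-08). For CDH5 the closest genes included ADGRL4 (r = 0.793) and MYCT1 (0.754), which are known from vascular endothelium, after RAB8B (0.808) and BCHE (0.796), with VSIG10L (0.762) between them. For VEGFA they were TNFAIP2 (0.886), SPRY4 (0.868), ADA (0.828), HBEGF (0.818) and SMIM14 (0.809).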

How the data were processed

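The deposited table holds whole-number read counts per gene, which the authors had not normalised. Per the submitters' processing notes, Trim Galore 0.6.7, STAR 2.7.10a, HTSeq 2.0.0 and the build GRCg6a were used. The sources used here do not give the strand setting or counting mode, so reads of overlapping antisense genes cannot be told apart. Samples were grouped by the side and stage in their titles, and no row without a gene name was present.

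Tests used the quasi-likelihood method of edgeR 4.0.16, with limma 3.58.1, in R 4.3.3. filterByExpr (minimum count 10, minimum total 15) kept 16694 genes, TMM factors scaled the totals, and all 24 libraries entered 1 fit with 8 group means, with a biological coefficient of variation of 0.212. P-values were adjusted by Benjamini-Hochberg across the whole set of genes, and those under 0.05 were called. SEs were derived from the F statistic, as the absolute log2 change over its root. Contrasts compared the sides at each stage, averaged over stages and between stages, and the stages within each side. For correlations and list means, log2 CPM had a prior count of 2. The script was tested on simulated counts.

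The 8 members, the 15 gene lists and the tests were chosen with earlier results of these data known. Besides all members, the text names up to 4 called genes per list and comparison with the largest absolute log2 change and the 5 genes most correlated with KDR, CDH5 and VEGFA. VEGFC, TIE1, DLL4, HIF1A and other list genes outside that rule were named after their values were seen. Alternatives were RLE size factors, no filter, DESeq2 1.42.0, a fit on the compared libraries alone, and each library left out. Others were tissue-list covariates, a replicate block, and the 2 libraries with the highest mean log2 liver level left out. Leaving each stage out of the average was chosen after seeing the data. Same-numbered left and right libraries, whose numbers come from the labels, were compared by their deviations from the group means. They correlated above 0.1 in all 3 pairs at E5 (r from 0.351 to 0.524) and at E9.5 (r from 0.275 to 0.422). At E6.5 and E8, 2 of 3 and 1 of 3 pairs did. The blocked fit of the sides paired same-numbered libraries at all 4 stages at once. Gene order came from NCBI RefSeq's table for GRCg7b, used for names and neighbours. Coordinates and sequences were not used here.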

Additional observations from a re-analysis of the deposited data

Results flagged for a closer look

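None of the 8 members had a left-right difference at E9.5 that differed from that at E5 at an adjusted p under 0.05 in edgeR's quasi-likelihood test without pairing (KDR did with the libraries paired by number), and 7 other genes of the lists or named beside the members did. EMILIN2 and ARFGEF3, the matrix glycoprotein and the exchange factor gene whose levels followed KDR, had larger differences at E9.5, by log2 0.77 ± 0.19 SE (adjusted p = 0.037) and 1.16 ± 0.20 SE (adjusted p = 0.0031). Both were picked by their correlation with KDR in these same libraries, so their changes are not separate evidence beside its own. KIT, the neighbour of KDR, went the other way, by -1.68 ± 0.34 SE (adjusted p = 0.0089), as did the pluripotency factor NANOG of the germ cell list, by -2.47 ± 0.42 SE (adjusted p = 0.0024). PAX2, a transcription factor of the mesonephros list, moved by -2.01 ± 0.32 SE (adjusted p = 0.0018). The adrenal genes MC2R and CHGB moved by 4.82 ± 0.998 SE (adjusted p = 0.011) and 3.25 ± 0.68 SE (adjusted p = 0.012), and MC2R stood at 2.37 CPM or less in every library.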

How the results depend on the processing

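KDR stayed past the threshold and higher on the left at E6.5, E8, E9.5 and on average in every alternative run, with 0.75 to 0.84, 0.80 to 1.02, 0.93 to 1.03 and 0.74 to 0.80 (log2) when 1 library was left out. Of 2152 recomputed values, 1942 kept their side of the threshold and, where they had one, their direction. Another 89 no longer passed, 40 newly passed and 81 changed sign. The F test over stages gave 256 of the 2152 values, which have no direction, and 255 of these kept their side of the threshold. The cause was not tested. Values below are log2 fold changes or numbers of members called. The calls over all genes are given only for the replicate block. The numbers of members therefore describe how calls shift with the fit and are not results about the members as a group.

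With DESeq2, 3 members were called at E5, 2 at E6.5 and 1 for E9.5 minus E5, and VEGFA at E8 against E6.5 on the right was -0.039, as it was with RLE factors. Without a filter 0 were called at E6.5 against E5 on the right, and VEGFA at E8 against E6.5 there was -0.028. Fitted on the compared libraries only, 0 were called at E5 and at E6.5 against E5 on either side, and VEGFA at E8 against E6.5 on the right was -0.050. The averaged and varying comparisons use all libraries, so that fit gave no value for them. A further fit left out replicate 3 of the E6.5 left gonad and replicate 3 of the E8 right gonad. These 2 libraries had the highest mean log2 levels of the liver list, at 4.40 and 7.45. Liver transcripts remained in other libraries, with 3.76 in replicate 2 of the E9.5 right gonad. By summed CPM all E8 right libraries, at 1334 or more, were above the E6.5 left libraries, at 884 or less. Without the 2 libraries, 2 members were called at E5, 3 at E6.5 and 2 at E6.5 against E5 on the left. There PLVAP at E6.5 against E5 on the left was -0.13, FLT1 at E8 against E6.5 on the left 0.057 and FLT4 at E8 against E6.5 on the right 0.019. Without stage E8, chosen after seeing the data, 5 were called on average.

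With the adrenal covariate, 2 were called at E6.5, 1 for E9.5 minus E5, 2 at E6.5 against E5 on the left and 0 in that step on the right. FLT4 at E5 was 0.038. On the left, E9.5 against E5 gave ERG -0.014, KDR 0.070 and PLVAP -0.035, E6.5 against E5 PLVAP -0.055, E8 against E6.5 ERG -0.12 and PLVAP -0.075, and E9.5 against E8 PLVAP 0.095. VEGFA at E8 against E6.5 on the right was -0.0065. With the mesonephros covariate, 4 were called on average and 1 at E6.5 against E5 on the right. VEGFA was 0.12 at E6.5, 0.17 at E9.5 and 0.48 for E9.5 minus E5, and FLT1 was 0.0073 at E9.5. On the right VEGFA was -0.061 at E9.5 against E5, -0.21 at E6.5 against E5 and -0.030 at E8 against E6.5.

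With the endothelial covariate, 0 were called at E5, 2 at E8, 3 on average, 5 at E9.5 against E5 on the right and 2 at E6.5 against E5 on the left. FLT4 was 0.34 at E5, 0.11 at E6.5, 0.064 at E8 and 0.12 on average. VEGFA was 0.010 at E5, 0.13 at E6.5, 0.067 at E8 and 0.014 on average. FLT1 was 0.063 at E8 and 0.069 at E9.5, and ERG 0.021 at E8. On the left, E9.5 against E5 gave ERG -0.30, FLT1 -0.28, KDR 0.032, PLVAP -0.18 and VEGFA -0.23, E6.5 against E5 PLVAP -0.054, E8 against E6.5 ERG -0.072 and E9.5 against E8 ERG -0.012. On the right, E9.5 against E5 gave VEGFA -0.078, E6.5 against E5 PLVAP -0.057 and VEGFA -0.011, E8 against E6.5 ERG -0.14 and VEGFA -0.43, and E9.5 against E8 ERG 0.060 and FLT4 0.092.

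With stage and number as a replicate block, KDR at E5 was 0.39 and passed (adjusted p = 0.013), with 3 members called at E5, 2 at E6.5, 1 for variation over stages and 1 for E9.5 minus E5. The correlations at E5 and E9.5 hint at pairs, though no label says what a number marks. There the block changed the calls of KDR and TEK at E5 and of KDR for E9.5 minus E5, and of no other member. At E6.5 and E8 the libraries share a number only. There the block moved TEK at E6.5 past the threshold. Over the 4 stages, 10 of 12 left libraries correlated best with their own number, a hint from the data. With the number as a block across stages, 2 were called at E6.5 against E5 on the left. Over all genes the stage and number block gave 814 calls at E5 against 490 without it. It gave 862 against 541 at E6.5 and 3413 against 2379 at E8. For variation over stages it gave 607 against 342, and for E9.5 minus E5 692 against 368. The number block across stages gave 1974 against 1740 at E6.5 against E5 on the left.

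Leaving out 1 library at a time gave 0 to 3 members called at E5, 1 to 3 at E6.5, 3 to 4 at E8 and 0 to 1 for E9.5 minus E5. It gave 1 to 2 at E9.5 against E5 and at E6.5 against E5 on the left, and 0 to 2 at E6.5 against E5 on the right. Between sides, the values crossed 0 for VEGFA at E5 (-0.63 to 0.0045), CDH5 at E9.5 (-0.19 to 0.11) and VEGFA for E9.5 minus E5 (-0.40 to 0.24). The call changed in at least 1 such fit for KDR (0.28 to 0.52), FLT1 (-0.69 to -0.42), TEK (-0.66 to -0.45) and ERG (-0.76 to -0.58) at E5, ERG (-0.53 to -0.24) and PLVAP (-0.53 to -0.31) at E6.5, and ERG (-0.51 to -0.39) and FLT4 (-0.72 to -0.43) at E8. It also changed for VEGFA on average (-0.45 to -0.29) and KDR for E9.5 minus E5 (0.46 to 0.71). On the left, KDR ran from -0.19 to 0.0045 at E9.5 against E5 and from -0.14 to 0.081 at E9.5 against E8, FLT1 from -0.21 to 0.13 at E6.5 against E5 and from -0.20 to 0.067 at E8 against E6.5. PLVAP on the left ran from -0.12 to 0.10 at E6.5 against E5 and from -0.13 to 0.053 at E9.5 against E8. On the right, CDH5 ran from -0.26 to 0.028 at E9.5 against E5, PLVAP from -0.017 to 0.037 and VEGFA from -0.17 to 0.47 at E6.5 against E5. At E8 against E6.5 on the right FLT1 ran from -0.14 to 0.11, FLT4 from -0.14 to 0.087 and VEGFA from -0.12 to 0.21, and at E9.5 against E8 ERG from -0.12 to 0.033 and FLT4 from -0.16 to 0.033.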

Other observations

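The genes next to KDR in the RefSeq gene order of GRCg7b, SRD5A3 and KIT, were also higher in the left gonad on average, each with its own course over the stages. SRD5A3, an enzyme of dolichol synthesis, was called at all 4 stages, with log2 differences of 0.64 ± 0.16 SE at E5 (adjusted p = 0.028), 1.19 ± 0.16 SE at E6.5 (adjusted p = 0.00017), 0.78 ± 0.16 SE at E8 (adjusted p = 0.0026) and 0.71 ± 0.16 SE at E9.5 (adjusted p = 0.0062). At E6.5 it stood at 61.2 ± 5.02 CPM on the left and 26.8 ± 5.42 CPM on the right. KIT, the receptor of stem cell factor and a germ cell gene, was called higher on the left at E5 (1.27 ± 0.24 SE, adjusted p = 0.0046) and E6.5 (1.23 ± 0.24 SE, adjusted p = 0.0054). At E9.5 KIT stood at 23.4 ± 1.76 CPM on the left and 31.1 ± 8.17 CPM on the right (-0.41 ± 0.23 SE, adjusted p = 0.27), when KDR had its largest difference. CDH11, beside CDH5 in that order, and ETS2, beside ERG, were lower on the left like their neighbours. CDH11, a mesenchymal cadherin, was called at all 4 stages, by log2 -0.62 ± 0.10 SE at E5 (adjusted p = 0.0011) and -0.52 ± 0.10 SE at E9.5 (adjusted p = 0.0022). ETS2, a transcription factor of the same family as ERG, was called at E6.5, E8 and E9.5, with -0.77 ± 0.11 SE at E8 (adjusted p = 0.00018). Over all members, 15 of 16 neighbours were tested and 7 were called on average over stages, where 32.2% of all genes were. The other 8 were not called, among them BEAN1, on the other side of CDH5 (log2 0.03 ± 0.16 SE, adjusted p = 0.91), and POMP and PAN3, on either side of FLT1. No test was made of neighbourhood itself.

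Of the genes of the surface epithelium, 5 of 11 were called higher in the left gonad on average over stages and 2 lower, against 14.9% and 17.2% of all genes. EMX2, a regulator of urogenital epithelium on that list, stood at 149 ± 14.8 CPM on the left and 56.4 ± 7.81 CPM on the right at E8 (log2 1.41 ± 0.13 SE, adjusted p = 7.8e-07). Germ cell genes were higher on the left too, with 11 of 11 called at E5 and E6.5, 9 at E8 and 4 at E9.5. Of all genes 2.94%, 3.24%, 14.3% and 13% were called from E5 to E9.5, in either direction.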
